A study of Drosophila melanogaster with 2 samples.

Results

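The 10 listed heat shock and chaperone genes examined here for peaks of the protein CG13123 in fly embryos are 10 of the 18164 annotated genes outside transposable elements on the main chromosome arms, of which 13945 are protein-coding. The members are Hsp22, Hsp23, Hsp26 and Hsp27, which form the small heat shock cluster on 3L, and Hsp83, Hsc70-3, Hsc70-4, Hsc70-5, Hsp60A and Hsf. They were chosen by name, with earlier results of these data known, and all 10 symbols matched the annotation. A peak was given to a gene when its summit lay within 500 bp of a transcription start site (TSS) or between the ends of the gene. The data are chromatin immunoprecipitation with sequencing (ChIP-seq) from whole Drosophila melanogaster embryos aged 0 to 24 h, both sexes pooled. The strain makes CG13123 fused to green fluorescent protein (GFP), and chromatin was precipitated with an antibody to GFP. There is 1 group of 2 biological replicates, numbered 2 and 3, so no condition was compared and no test was run. A precipitation from untagged embryos was not analysed here, so enrichment specific to CG13123 and enrichment that any GFP precipitation gives cannot be told apart. In whole embryos a weak peak in many cells and a strong peak in few also cannot be told apart.

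Heat shock proteins are chaperones that bind unfolded proteins, hold them or help them fold. Small heat shock proteins hold unfolding proteins, and the Hsp70, Hsp90 and chaperonin families fold them with ATP. The cognate forms (Hsc) are made without stress, and several small heat shock genes are also switched on during normal fly development. On heat stress the heat shock factor, encoded by Hsf, binds heat shock elements, which are alternating inverted units of GAA and TTC, at the promoters of its target genes.

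The bases before the start sites are shown for 4 of the members with a strong promoter summit inside them, and for Hsp23 as a cluster gene without a strong peak. Each sequence is the 200 bases before the first annotated TSS on dm6, read 5′ to 3′ on the strand of the gene, with the genome's bases from RefSeq. Hsc70-5 also has a strong summit in this window, 60 bp upstream of its TSS, and its sequence is not shown. Capitals mark matches to GAANNTTC or TTCNNGAA, a core of the heat shock element searched on both strands. Hsp27 lies at chr3L:9383863-9384062, plus strand, and Hsp26 at chr3L:9377428-9377627, minus strand. Hsc70-4 lies at chr3R:15242487-15242686, plus strand, Hsp60A at chrX:11108282-11108481, plus strand, and Hsp23 at chr3L:9381682-9381881, plus strand.
Hsp27: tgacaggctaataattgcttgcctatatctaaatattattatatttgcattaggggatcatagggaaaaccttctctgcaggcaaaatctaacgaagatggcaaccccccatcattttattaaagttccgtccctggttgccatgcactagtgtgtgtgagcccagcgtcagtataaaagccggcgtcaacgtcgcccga
Hsp26: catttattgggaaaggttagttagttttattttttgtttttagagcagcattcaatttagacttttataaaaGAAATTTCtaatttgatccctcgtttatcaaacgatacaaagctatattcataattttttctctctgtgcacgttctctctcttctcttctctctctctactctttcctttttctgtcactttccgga
Hsc70-4: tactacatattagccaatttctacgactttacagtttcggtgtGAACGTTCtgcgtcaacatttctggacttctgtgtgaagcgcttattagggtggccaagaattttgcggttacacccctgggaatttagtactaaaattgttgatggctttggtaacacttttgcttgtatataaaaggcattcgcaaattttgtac
Hsp60A: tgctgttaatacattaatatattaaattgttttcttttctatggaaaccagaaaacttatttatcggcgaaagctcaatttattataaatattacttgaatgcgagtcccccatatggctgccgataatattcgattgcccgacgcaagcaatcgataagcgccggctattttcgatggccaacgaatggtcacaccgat
Hsp23: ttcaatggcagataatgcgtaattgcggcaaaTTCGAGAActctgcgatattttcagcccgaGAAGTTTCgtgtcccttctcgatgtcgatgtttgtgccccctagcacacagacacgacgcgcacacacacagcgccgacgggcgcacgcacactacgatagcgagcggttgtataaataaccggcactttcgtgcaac

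The summit in the list of both replicates together falls on base 42 of the Hsp27 sequence, base 100 of the Hsp26 sequence, base 45 of the Hsc70-4 sequence and base 53 of the Hsp60A sequence, counted from 1 at the 5′ end. The Hsp26 sequence holds 6 matches to the GAGA element (GAGAG or CTCTC), with overlapping matches counted. The Hsp27, Hsc70-4, Hsp60A and Hsp23 sequences hold none. Among the members not shown, the same window holds 1 match at Hsp22 and 2 at Hsc70-3. At least 1 match is thus present at 3 of the 10 members, against 22.1% of protein-coding genes, and 4.59% of those genes hold 3 or more. A further strong peak lies inside Hsp83 in an intron, and its whole interval on the plus strand at chr3L:3194177-3194348 is shown because no start site lies near it.
Hsp83 intron: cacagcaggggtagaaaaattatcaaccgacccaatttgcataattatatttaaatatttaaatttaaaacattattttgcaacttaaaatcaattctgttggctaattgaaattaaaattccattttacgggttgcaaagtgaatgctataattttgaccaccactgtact

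Of the 10 members, 6 had a promoter peak in the list thresholded by the irreproducible discovery rate (IDR), a measure of how well peak ranks agree between replicates. The peaks of that list are the 2704 of highest signal in the list of both replicates together. These were Hsp26 and Hsp27 of the cluster and Hsp83, Hsc70-4, Hsc70-5 and Hsp60A among the others. The share of all 13945 protein-coding genes with such a peak was 14.4%, and of the 7057 with any relaxed promoter peak it was 28.4%. A relaxed list holds 30000 peaks and background regions and was deposited for each replicate and for both together, while the IDR list holds 2704 peaks. All 10 members had a peak by the rule in the relaxed list of both replicates together, against 57.9% of protein-coding genes. In the replicates' own lists it was all 10 in replicate 2 and 9 in replicate 3, which had none at Hsp23. In the list of both replicates together the highest peaks of Hsp23 and Hsf had deposited −log10 q-values of 0.570 and 0.743. Higher values mark surer peaks and the lowest in the IDR list was 3.20, so the Hsp23 and Hsf peaks may be background regions. Signals are the authors' values. The labels and files state no scale for them and their range differs between lists, so levels are compared within a list. The 1 ratio taken between lists, of replicate 2 to replicate 3, is read only against the same ratio at all IDR peaks.

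**Figure D1:**
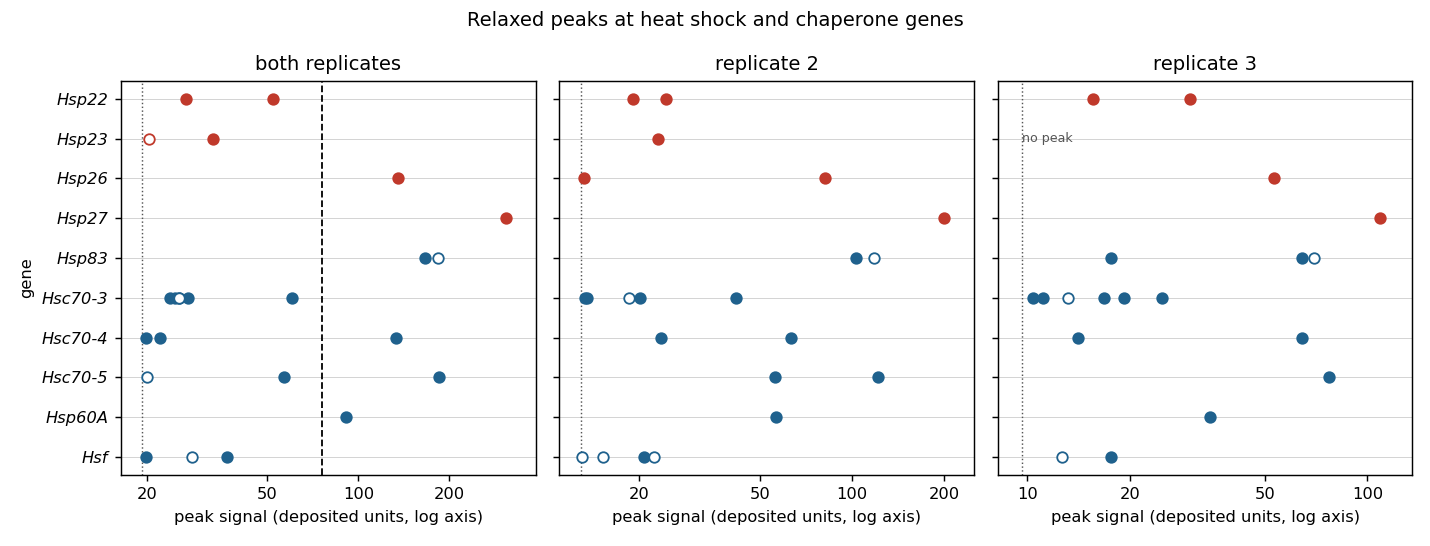
Signal of every relaxed peak at each member (log axis, deposited units) in the list of both replicates and in each replicate's own list. Red marks the 3L cluster and blue the others, filled points lie within 500 bp of a TSS and open points only inside the gene, the dashed line is the lowest IDR signal (75.5) and dotted lines are the lowest signal of each list. In the list of both replicates, points of 6 genes lie beyond the dashed line.

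Hsp27, a small heat shock protein found in the nucleus, had the strongest peak of the members. Its signal was 308 in both replicates together, rank 144 of 30000, with 200.2 at rank 116 in replicate 2 and 109 at rank 229 in replicate 3. The IDR peak at chr3L:9383790-9384046 ended before the TSS, and its summit lay 159 bp upstream of it. The replicates' summits were 45 bp apart. In the IDR list the next protein-coding promoters above and below Hsp27 in signal were those of Ing5 (311, rank 142) and CG8892 (308, rank 145). Their signals in the replicates' own lists were 168 in replicate 2 and 140.4 in replicate 3 for Ing5, and 170.2 and 139.6 in the same order for CG8892.

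Hsp26, a cytosolic small heat shock protein, had the other strong peak of the cluster. Its signal was 135 in both replicates together (rank 973), 81.5 in replicate 2 (rank 926) and 53.2 in replicate 3 (rank 1139). The summit lay 101 bp upstream of the TSS, inside chr3L:9377328-9377727. Ranks in the replicates' own lists thus put Hsp27 and Hsp26 among the 2704 highest peaks of both.

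Hsp22 and Hsp23, on the plus strand at chr3L:9372931-9374964 and chr3L:9381882-9382765, had only weak peaks. Hsp22, a small heat shock protein of mitochondria, had a highest signal of 52.2 in both replicates together (rank 4968), 24.6 in replicate 2 (rank 8945) and 30.2 in replicate 3 (rank 3203). That summit lay 443 bp upstream of the second annotated TSS and inside the 5′ UTR of the transcript that starts at the first. It also lies inside CG4456, which overlaps Hsp22 on the same strand and shares its 3′ end. Hsp23, another cytosolic small heat shock protein, had 33.0 in both replicates together (rank 11184) and 23.1 in replicate 2 (rank 10181), and replicate 3 had no peak by the rule. Its summit lay 68 bp downstream of the TSS, in the 5′ UTR. The nearest IDR summit to the Hsp23 TSS was that of Hsp27, 2022 bp away, and the nearest to a TSS of Hsp22 was that of Hsp26, 3531 bp away.

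Between the ends of Hsp22 and Hsp27 the cluster spans 12764 bp and held 5 relaxed summits of both replicates, or 3.92 per 10 kb against 2.24 over the main arms. Replicate 2 had 7 summits there (5.48 per 10 kb) and replicate 3 had 3 (2.35), against 2.24 over the main arms in each list. The 2 IDR summits make 1.57 per 10 kb, against 0.202 over the arms. The interval was cut at the ends of listed genes, while the arms include stretches without genes. Its 2 IDR summits are the Hsp26 and Hsp27 peaks already given, so these densities are not a separate result. The other genes of the interval had weak peaks or none. CG4456 had a promoter signal of 26.9 in both replicates together, 19.2 in replicate 2 and 15.6 in replicate 3. Those summits also lay within 500 bp of an Hsp22 TSS. Hsp67Ba, a small heat shock gene between Hsp26 and Hsp23, had no peak by the rule in any list, and neither did CG4461 nor the pseudogene CR43483, which overlaps the 3′ end of Hsp27. The antisense RNA gene CR43481 had 13.2 in replicate 2 alone, from a summit that also lies within 500 bp of the Hsp26 TSS.

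**Figure D2:**
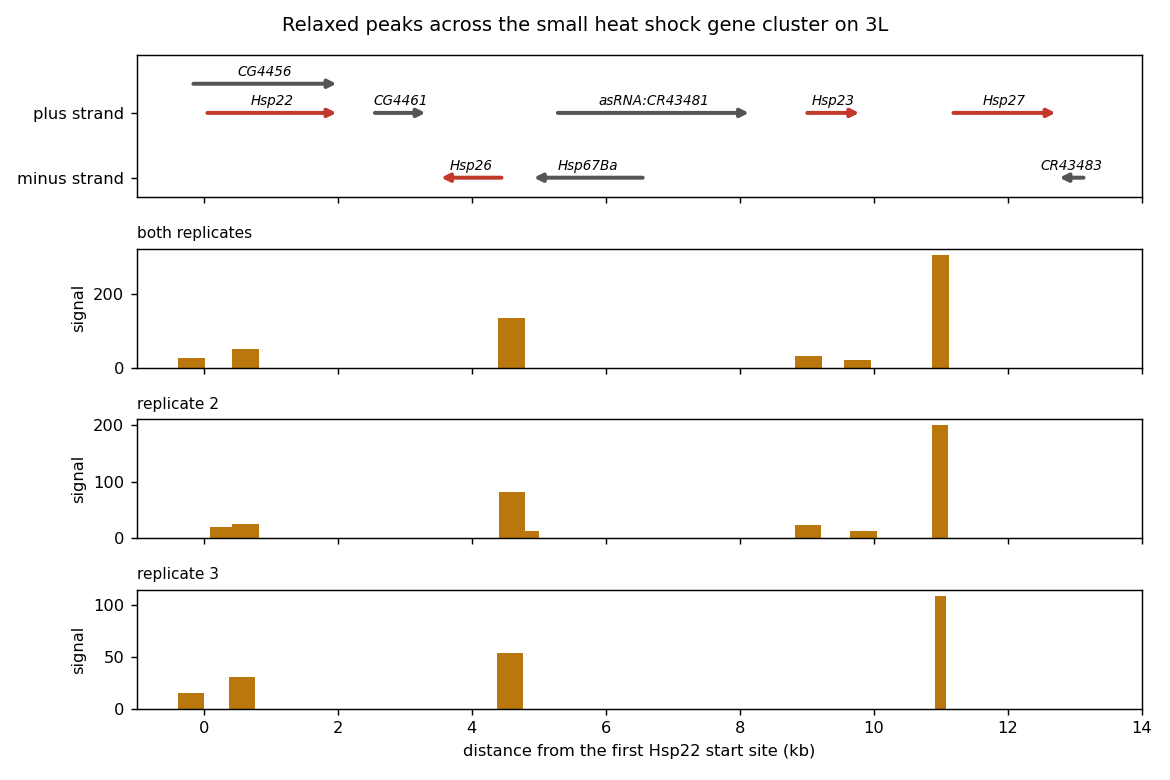
Genes of the 3L cluster (top, arrows point in the direction of transcription, red for members) and relaxed peaks below, with bars from the start to the end of each peak and as high as its signal (deposited units). Distance is in kb from the first Hsp22 start site. The tallest bar in each list lies before Hsp27 and the next before Hsp26, while no summit lies inside CG4461 or Hsp67Ba.

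Hsp83, the fly's cytosolic Hsp90, was the only member with more than 1 IDR peak. Its promoter peak at chr3L:3193023-3193215 had a signal of 166 in both replicates together (rank 632), 103 in replicate 2 (rank 569) and 64.2 in replicate 3 (rank 775). That summit lay 99 bp upstream of the second annotated TSS and 148 bp downstream of the first, in the 5′ UTR of the longer transcript. The intronic peak shown above was stronger in every list, with 184 (rank 510) in both replicates together, 118 (rank 427) in replicate 2 and 69.8 (rank 626) in replicate 3. Its summit lay 1047 bp downstream of the second TSS. Both IDR peaks were narrow, at 193 and 172 bp, against a median of 400 bp. Of all IDR peaks, 486 (18.0%) were under 300 bp wide, the Hsp27 peak (257 bp) included.

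Hsc70-4, the main cytosolic Hsp70 made without stress, had a signal of 133 in both replicates together (rank 998), 63.2 in replicate 2 (rank 1536) and 64.3 in replicate 3 (rank 774). Its summit was at the same base in all 3 relaxed lists, 156 bp upstream of the first TSS, and the IDR peak spanned chr3R:15242331-15242730. The TSS of tefu, on the other side, lay 295 bp from that summit. The ratio of the deposited signal in replicate 2 to that in replicate 3 was 0.983 at this peak and 1.53 to 1.84 at the other 6 IDR peaks of members. Over the 2586 IDR peaks with a summit within 100 bp in both replicates the median ratio was 1.41, with quartiles of 1.17 and 1.73, and 11.3% of them had a ratio below that of Hsc70-4.

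**Figure D3:**
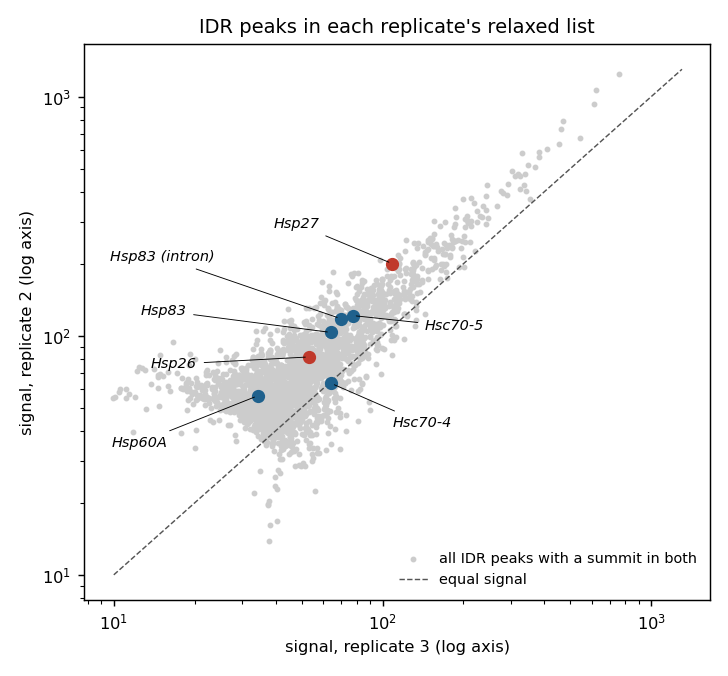
Signal in replicate 2 against signal in replicate 3 (log axes, deposited units) for IDR peaks with a summit within 100 bp in both relaxed lists (grey) and for the 7 IDR peaks of members (red for the 3L cluster, blue for the others). The dashed line marks equal values and is only a guide, since the range of signals differs between lists. Against the median ratio of 1.41 over these IDR peaks, Hsc70-4 is lower (0.983) and the other members' peaks are higher.

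The Hsp70 and the chaperonin of mitochondria both had an IDR peak. Hsc70-5, the mitochondrial Hsp70, had 185 in both replicates together (rank 501), 121 in replicate 2 (rank 401) and 77.4 in replicate 3 (rank 517). Its summit lay 60 bp upstream of the TSS at chr2R:14256052-14256451, and the TSS of CG8531 lay 241 bp from it. The replicates' own summits were 117 bp apart, 3 bp downstream of the Hsc70-5 TSS in replicate 2 and 114 bp upstream in replicate 3. A weaker relaxed peak of 56.8 (rank 4356) lay 39 bp from the CG8531 TSS. Hsp60A, the chaperonin subunit of mitochondria, had 91.1 in both replicates together (rank 2009), 56.1 in replicate 2 (rank 1936) and 34.3 in replicate 3 (rank 2590). It was the weakest IDR peak of the members, with its summit 148 bp upstream of the TSS at chrX:11108134-11108533.

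Hsc70-3, the Hsp70 of the endoplasmic reticulum known as BiP, had no IDR peak. The gene lies on the minus strand at chrX:11801696-11807117. Its highest relaxed signal was 60.4 in both replicates together (rank 3928), 41.5 in replicate 2 (rank 3253) and 24.9 in replicate 3 (rank 4435). In both replicates together and in replicate 2 that summit lay 486 bp upstream of the first TSS, and in replicate 3 it lay 286 bp upstream. The distance of 486 bp, just inside the limit of 500 bp, was the farthest from a start site among the members' highest promoter summits. The other 5 relaxed peaks of both replicates at Hsc70-3 lay inside the gene and had signals of 23.8 to 27.4. The nearest IDR summit to a TSS of Hsc70-3 was 11474 bp away.

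Hsf, which encodes the heat shock factor itself, had no IDR peak either. The gene lies on the minus strand at chr2R:18130303-18134634. Its highest relaxed signal was 36.8 in both replicates together (rank 9073), 22.5 in replicate 2 (rank 10746) and 17.6 in replicate 3 (rank 8662). The replicates placed these highest summits 3320 bp apart. In replicate 2 the summit lay in the coding sequence near the end of the gene, and in replicate 3 in an intron 441 bp from the TSS. Replicate 2 also had a weaker peak of 20.9 (rank 12551) whose summit was intronic, 407 bp downstream of the start site. In both replicates together the highest summit lay in the same intron as that of replicate 3, 472 bp from the TSS. Just outside the limit of 500 bp, a further relaxed peak lay 581 bp upstream with a signal of 28.9 (rank 14554). The nearest IDR summit was 13382 bp from the TSS.

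**Figure D4:**
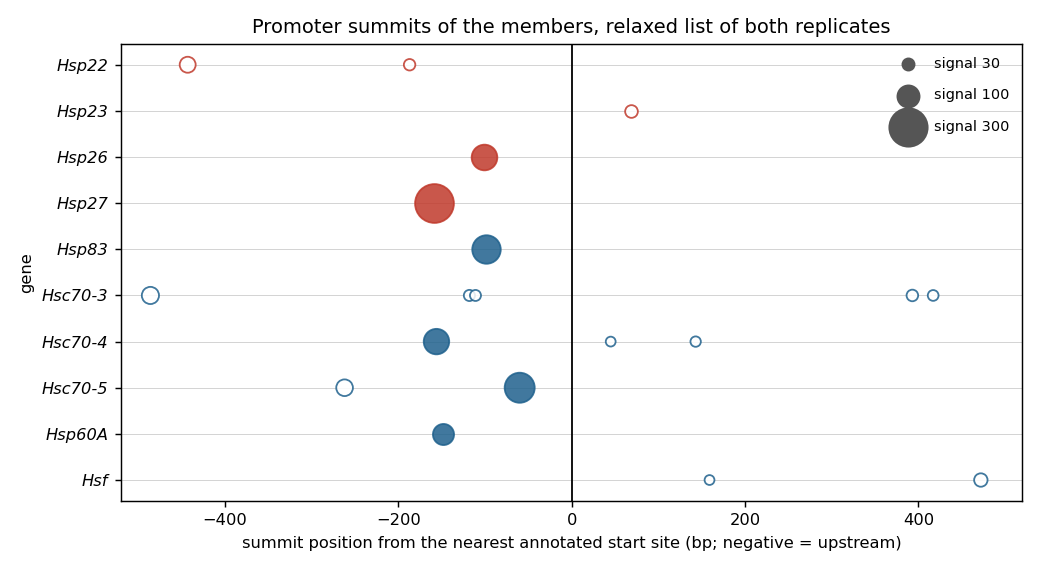
Position of each relaxed promoter summit of both replicates from its nearest annotated start site in bp, with circle area in proportion to signal, red for the 3L cluster and blue for the others. Filled circles are in the IDR list, and all 6 lie 60 to 159 bp upstream.

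The 6 IDR promoter summits all lay upstream of their nearest TSS, by 60 to 159 bp. Of all 1455 IDR summits within 500 bp of a protein-coding TSS, 1232 (84.7%) lay upstream of the nearest, at a median offset of -123.5 bp, so this position is common in the list. Highest signals by the rule had a median of 112 over the 10 members and 48.7 over the 8069 protein-coding genes with a relaxed peak of both replicates. In each replicate's own list 6 members had a promoter peak among the 2704 highest, a share reached by 14.5% of protein-coding genes in replicate 2 and 14.6% in replicate 3.

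The small heat shock cluster and the other members overlapped in signal. IDR promoter peaks were present at 2 of 4 cluster genes and 4 of the 6 others. Highest signals in both replicates together ran from 33.0 to 308 in the cluster, with a median of 93.4, and from 36.8 to 185 in the others, with a median of 112. In that list the cluster thus held both the strongest and the weakest member. In replicate 2 the weakest was Hsf, at 22.5 against 23.1 for Hsp23. The difference of medians, cluster minus others, was -18.5 in both replicates together, -6.61 in replicate 2 and -7.63 in replicate 3, where Hsp23 was set to 0. The 4 cluster genes share a locus and are not independent, and the difference was not tested.

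Matches to the core of the heat shock element were counted near the summits. Within 100 bp of each member's highest summit, GAANNTTC or TTCNNGAA was present at 2 of 10 members, Hsp26 and Hsc70-4. Over all IDR summits the share was 10.5%, and over relaxed summits 10.5% as well. A count of 2 in 10 windows is near these shares. A run of 3 alternating units was present at 0 of 10 members, against 0.370% of IDR windows. The promoter summit of Hsp83 was also put in place of its intronic one, a choice made after its values were seen. GAANNTTC or TTCNNGAA was then present at 3 of the 6 members with an IDR promoter peak and at 0 of the 4 without one. A count chosen in this way cannot show a link between element and peak, and none is read from it. At Hsc70-4 the summit lay on the element, at Hsp26 it was 20 bp from it and at Hsp83 31 bp. At Hsp27 the nearest element was 172 bp from the summit, at Hsc70-5 246 bp and at Hsp60A 438 bp. The members without an IDR promoter peak, Hsp22, Hsp23, Hsc70-3 and Hsf, had distances from their highest promoter summit within this same range. Elements were thus nearer than this range at only 3 of the 6 members with an IDR promoter peak. In the 200 bases before the first TSS the element was present at 4 members, Hsp23, Hsp26, Hsc70-3 and Hsc70-4, against 10.7% of protein-coding genes. Of these 4, Hsp26 and Hsc70-4 had an IDR promoter peak and Hsp23 and Hsc70-3 did not. With all annotated start sites searched, a choice made after seeing the data, Hsp22, Hsp83 and Hsp60A were added, against 13.9% of protein-coding genes. The element was then present at 4 of the 6 members with an IDR promoter peak and at 3 of the 4 without one. A match is a stretch of letters and not a measured site of the heat shock factor.

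The elements are shown with 11 bases on their 5′ side, 30 bases in all, on the strand of the gene, for the 3 members with one near an IDR promoter summit and for Hsp22 and Hsc70-3, which had no IDR peak. Capitals mark the element, which starts at 15242530 on 3R for Hsc70-4, 9377548 on 3L for Hsp26, 3193148 on 3L for Hsp83, 9373910 on 3L for Hsp22 and 11807190 on X for Hsc70-3.
Hsc70-4: agtttcggtgtGAACGTTCtgcgtcaacat
Hsp26: cttttataaaaGAAATTTCtaatttgatcc
Hsp83: agaagcctctaGAAGTTTCtagagacttcc
Hsp22: caaagggcgaaGAAAATTCgagagagtgcc
Hsc70-3: tgtatcgatgtTTCTAGAAaactaaactca

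The 6-mers ACAGTG and ACACTG, known from earlier results of these data, were also counted. Within 100 bp of the highest summit ACAGTG (or CACTGT) was present at 1 of 10 members, the Hsp83 intron, against 19.8% of IDR windows and 11.2% of relaxed windows. ACACTG (or CAGTGT) was present at 1 of 10, Hsf, against 19.7% and 11.3%. Counts of 1 in 10 windows are near these shares. The DNA replication element TATCGATA was present at 0 of 10, against 4.77%, and the TATA box (TATAAA or TTTATA) at 4 of 10, against 37.1%.

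Among 57 other chaperone genes, 11 (19.3%) had an IDR promoter peak, beside 14.4% of protein-coding genes. The 57 and the 11 both include the noncoding gene Hsromega, which the share over protein-coding genes does not cover. The J proteins, which hand substrates to Hsp70, stood at 5 of 10, with mrj at 261 (rank 214), DnaJ-H at 152 (rank 749), Sec63 at 108, P58IPK at 82.3 and Tpr2 at 77.7. Other chaperonin genes stood at 2 of 12, with CG11267 at 111 and CCT8, a subunit of the cytosolic chaperonin, at 85.3. Cochaperones stood at 2 of 16, with the prefoldin subunit genes mgr at 239 (rank 265) and Pfdn6 at 82.6. Gp93, the Hsp90 of the endoplasmic reticulum, had 81.3, and its ranks were 1577 in replicate 2 and 7811 in replicate 3. Hsromega, a noncoding RNA gene that heat shock induces, had 127 (rank 1094). The DnaJ-H, Sec63, CCT8, mgr and Pfdn6 summits also lay within 500 bp of a TSS of another gene, namely Sirt1, pst, CG30349, Irbp and Su(z)12 in that order.

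Small heat shock genes outside the members stood at 0 of 7 with an IDR promoter peak, and other Hsp70 family genes, cognates included, at 0 of 9. With 14.4% of protein-coding genes holding one, counts of 0 in lists this short are near the background. Hsp68, a heat-induced Hsp70, had a relaxed signal of 44.4 (rank 6495), and Hsc70-1 had 38.1. None of the 6 Hsp70 genes proper had a relaxed promoter peak of both replicates, and Hsp70Aa had 15.7 in replicate 2 alone. These 6 genes are near-identical copies, and the labels and files do not say how reads matching several places were treated, so their lack of peaks is uncertain.

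**Figure D5:**
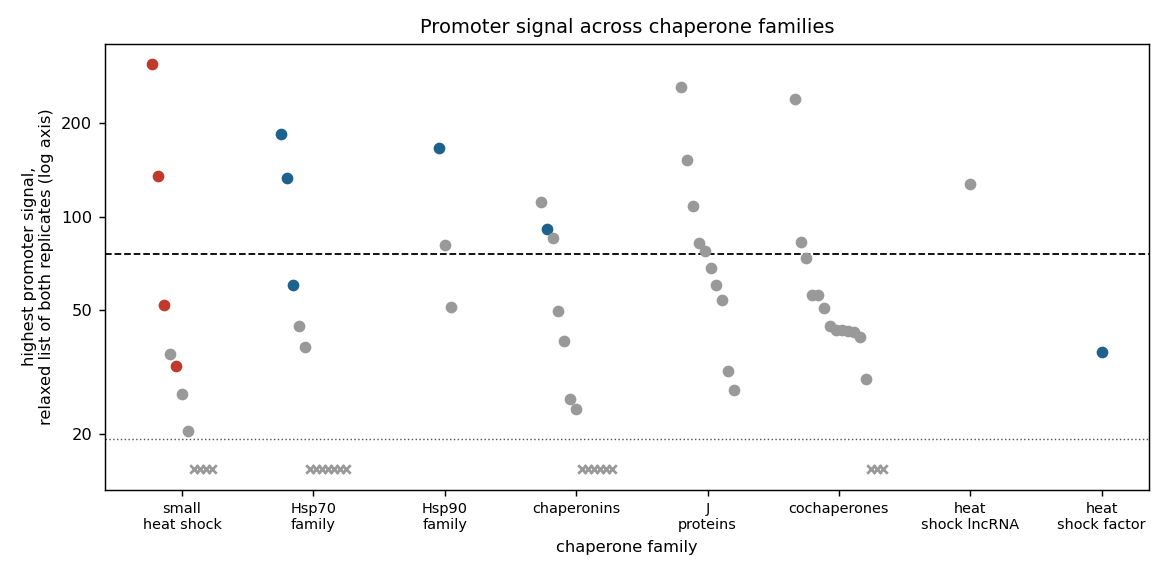
Highest promoter signal in the relaxed list of both replicates (log axis, deposited units) for members (red for the 3L cluster, blue for the others) and other chaperone genes (grey), by family. Crosses are genes with no relaxed promoter peak, the dashed line is the lowest IDR signal (75.5) and the dotted line the lowest relaxed signal (19.3). Points beyond the dashed line include 2 of the small heat shock family and 5 J proteins.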

How the data were processed

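ChIP-seq peak lists of 2 biological replicates were analysed on dm6. Per the labels and the deposited file lists, each relaxed list was called with a control, once per replicate and once for both pooled, and the IDR list was made from those 3 lists. No label or header names the aligner, peak caller, IDR threshold or read numbers, so depth is unknown and no counting interval is given. The signal per peak is as deposited by the authors, and so are the −log10 q-values, which ran from 3.20 to 3.68 in the IDR list. Those q-values are otherwise given only for Hsp23 and Hsf and set no threshold here. The dm3 lists were not used here.

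Gene models were those of Ensembl release 115, and sequence was read from RefSeq's copy of the Release 6 genome, which is dm6. Transposable elements were left out. A summit is column 2 plus column 10 of the list, written 1-based, and ranks order signal within a list. The named genes are the members, genes between the ends of the cluster, genes sharing a member's highest promoter summit, up to 10 other chaperone genes by IDR signal, and the rank neighbours of the strongest member. Named outside this rule, after their values were seen, were the 11th such chaperone gene, genes that share a summit with another chaperone gene, Hsp68, Hsc70-1 and Hsp70Aa. Of 63 other chaperone symbols 57 matched. The members, lists and motifs were chosen with earlier results of these data known. Functions were tested on simulated data. Python 3.11.15, pandas 2.3.3 and matplotlib 3.10.9 were used. Alternatives were other TSS windows, peak overlap, stricter lists and each replicate alone.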

Additional observations from a re-analysis of the deposited data

How the results depend on the processing

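The count of members with an IDR promoter peak was 6 with a TSS window of 200 or 1000 bp, with the outermost TSS only and in either replicate's own highest peaks, as many as the IDR list holds. It was 5 in the upper 1352 IDR peaks by signal, where Hsp60A was lost, and 4 where the peak interval had to cover a TSS. That last rule left 1 cluster gene, and Hsp83 was lost too, since the Hsp27 and Hsp83 promoter peaks end before the start site that follows. The count of other chaperone genes was 7 with a window of 200 bp, 4 among the 1352 highest IDR peaks and 6 with overlap of a TSS. The difference of medians, cluster minus others, ran from -7.63 to -6.61 in the replicates' own lists. The windows holding a heat shock element at the members' highest summits numbered 2, with 4 at 200 bp to each side, 0 for a run of 3 alternating units, and 7 in the 200 bases before any TSS, a search chosen after seeing the data. Of 30 member signals under other windows, 29 were unchanged or moved by less than the standard deviation of the signals in the replicates' own lists. That spread also holds the difference in range between the lists, so it is a loose limit. The only values that changed were Hsp83, 166 against 184 with start sites alone, and Hsc70-3, 27.4 against 60.4 with a window of 200 bp. The unknown depth limits what a missing peak shows, such as that of Hsp23 in replicate 3.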
